A study of Mus musculus with 2 samples.

Results

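Expression of 10 components of the Hedgehog pathway, a signalling route named after its secreted ligands, was compared between cultured mouse neural retinal progenitor cells (mNRPCs) and mouse retina. The 10 genes were a named list, Shh, Ptch1, Gas1, Boc, Cdon, Smo, Sufu, Gli1, Gli2 and Gli3, and all 10 were found among the 31253 genes of the table. The mNRPC library came from progenitors of C57BL/6 mice that had been cultured for 24 passages, and the retina library from retina of the same strain. The study's methods state that mNRPCs were grown from neural retina of adult mice in a defined medium that held bFGF and a small molecule against glycogen synthase kinase 3, CHIR99021. The age of the retina donors, and whether animals were pooled, is not given in the sources used here. Each group had 1 library, so no difference below has a spread between replicates to be set against, and no p-value is given.

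A Hedgehog ligand such as Shh binds Patched 1 (Ptch1) at the cell surface, helped by the co-receptors Gas1, Boc and Cdon. Free Ptch1 holds back Smoothened (Smo), and ligand binding lifts that block. Active Smo releases the Gli transcription factors from Sufu and from processing into repressors, and Gli1 and Ptch1 are themselves target genes that serve as readouts of the pathway. In the retina Shh is made by ganglion cells and acts on dividing progenitors and glia.

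Levels are in FPKM, a fragment number scaled by transcript length and library size, summed over the RefSeq transcript rows of a gene. The log2 ratio is log2((mNRPC FPKM + 1)/(retina FPKM + 1)), which understates differences of genes with low values, and a gene was called higher or lower from a log2 ratio of 1 in size. The estimated depth was 6.53e+06 fragments in the mNRPC library and 5.01e+06 in the retina library. These estimates put an uncertainty from counting on each level, and a gene at or under 3 estimated fragments is treated here as not detectable at this depth. Rod genes marked the retina library, with 783 to 9334 FPKM for 8 markers, against 0.133 to 4.13 FPKM in the mNRPC library. Of 8 progenitor markers 5 reached 1 FPKM in the mNRPC library, Pax6, Six3, Sox2, Nes and Lhx2, while Rax and Six6 were listed at 0. The progenitor label therefore holds for part of its markers.

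The promoters of the genes on which the results turn are shown first. These are Gas1, Smo and Gli3, which were the members with the largest log2 ratios in favour of mNRPCs, and Ptch1, a readout gene. RefSeq windows of GRCm38.p6 held 7 of the 10 members, and Shh, Boc and Gli1 had no entry. Each line gives the 250 bases before an annotated start, 5′ to 3′ on the gene's strand, with GC boxes (GGGCGG on either strand) in capitals. The Ptch1 window lies inside the span of the gene (chr13:63508328-63573460), before an internal start and not the outermost one. The windows of Gli2 and Cdon, not printed, also lie inside their genes.
Gas1, chr13:60177536-60177785, minus strand: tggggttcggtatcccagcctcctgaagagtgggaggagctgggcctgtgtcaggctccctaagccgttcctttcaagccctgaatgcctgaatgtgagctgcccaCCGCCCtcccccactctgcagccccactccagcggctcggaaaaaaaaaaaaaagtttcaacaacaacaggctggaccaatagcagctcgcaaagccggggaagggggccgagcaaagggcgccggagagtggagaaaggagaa
Smo, chr6:29735247-29735496, plus strand: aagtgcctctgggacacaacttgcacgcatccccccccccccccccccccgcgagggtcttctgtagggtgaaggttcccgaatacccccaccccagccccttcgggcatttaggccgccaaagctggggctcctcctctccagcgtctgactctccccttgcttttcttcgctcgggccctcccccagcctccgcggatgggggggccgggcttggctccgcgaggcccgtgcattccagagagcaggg
Gli3, chr13:15463473-15463722, plus strand: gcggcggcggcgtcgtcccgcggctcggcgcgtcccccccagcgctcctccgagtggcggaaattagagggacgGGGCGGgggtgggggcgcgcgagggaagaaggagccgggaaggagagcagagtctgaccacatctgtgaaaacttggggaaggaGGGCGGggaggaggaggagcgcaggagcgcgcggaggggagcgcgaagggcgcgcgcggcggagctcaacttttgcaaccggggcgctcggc
Ptch1, chr13:63565736-63565985, minus strand: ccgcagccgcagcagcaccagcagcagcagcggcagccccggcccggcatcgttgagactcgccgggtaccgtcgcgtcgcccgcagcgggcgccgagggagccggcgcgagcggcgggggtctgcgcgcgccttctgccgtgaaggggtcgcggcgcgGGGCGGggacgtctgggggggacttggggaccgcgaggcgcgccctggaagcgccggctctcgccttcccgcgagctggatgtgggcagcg

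The window of Ptch1 was the richest in CpG of the members, with 41 CpG and 78.4% GC, above 98.9% and 98.1% of the 32851 RefSeq windows. Gli3 followed with 34 CpG, Smo had 15 and Gas1 10, against a median of 6 over all windows. A GC box was found in the window of 5 of the 7 members that had one (Gas1, Gli2, Gli3, Ptch1 and Sufu), and in 32.7% of all windows. The Gli motif GACCACCCA and the looser form GACCNCCCA, which includes it, were searched on both strands of 300 bases around the start. Neither was found in a member window, and they occurred in 0.253% and 0.977% of all windows. No match says only that these letters are not in the window.

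The study's primer list for quantitative PCR holds pairs for 3 members, printed here because they show which part of each transcript that assay reads.
Ptch1 forward: ctcctaggtaagcctccttta
Ptch1 reverse: gctgtccacttggtagtttat
Sufu forward: gagtccttctgccaacatc
Sufu reverse: gtccgtctgttcctgtaaac
Gli2 forward: gttgctgtggactaggaatag
Gli2 reverse: gagaaataggagcgggtaaac

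On GENCODE M21 (GRCm38) the forward primer of Ptch1 crossed from exon 5 to exon 6 of the coding sequence and the reverse primer lay in exon 6 (chr13:63543604-63543624), in the transcript of 7725 bp that corresponds to NM_008957.2. The Sufu pair lay in coding exon 2 (chr19:46401175-46401193) and coding exon 3 (chr19:46424999-46425018), and matched both curated Sufu transcripts of the table. The Gli2 pair lay in the 3′ UTR, both primers in exon 14 (chr1:118835001-118835021 and chr1:118834931-118834951).

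Of the 10 components 4 were higher in mNRPCs, Gas1, Smo, Gli3 and Boc, and 1 was lower, Shh. Cdon and Sufu lay under the threshold, at less than 2-fold. Ptch1, Gli1 and Gli2 stayed under 1 FPKM in both libraries and were not compared. Over all 13780 genes compared, 24.5% were higher and 30.0% were lower in mNRPCs, so the 1 lower member of 7 compared lies under the background share. The 4 higher members of 7 compared lie above theirs, a difference that was not tested. Shh and Gli3 reached 1 FPKM in 1 library alone, so that the filter itself favoured a call for them. The median log2 ratio was 0.34 over the 10 members, against 0 over all 31253 genes, most of which were under 1 FPKM in both libraries. Over the 7 members compared it was 1.11, against −0.12 over the 13780 genes compared. Higher genes were 44.9% of all genes past the threshold as deposited, 30.2% when both libraries were brought to a summed FPKM of 1e+06, and 26.1% when rod and cone genes were left out before rescaling. The first rescaling moved the median log2 ratio of all genes compared from −0.12 to −0.68. Relative to these medians Gas1 stood at 4.03 and 4.13, Smo at 2.75 and 2.96, Gli3 at 2.38 and 3.19, and Boc at 1.23 and 1.60.

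**Figure D1:**
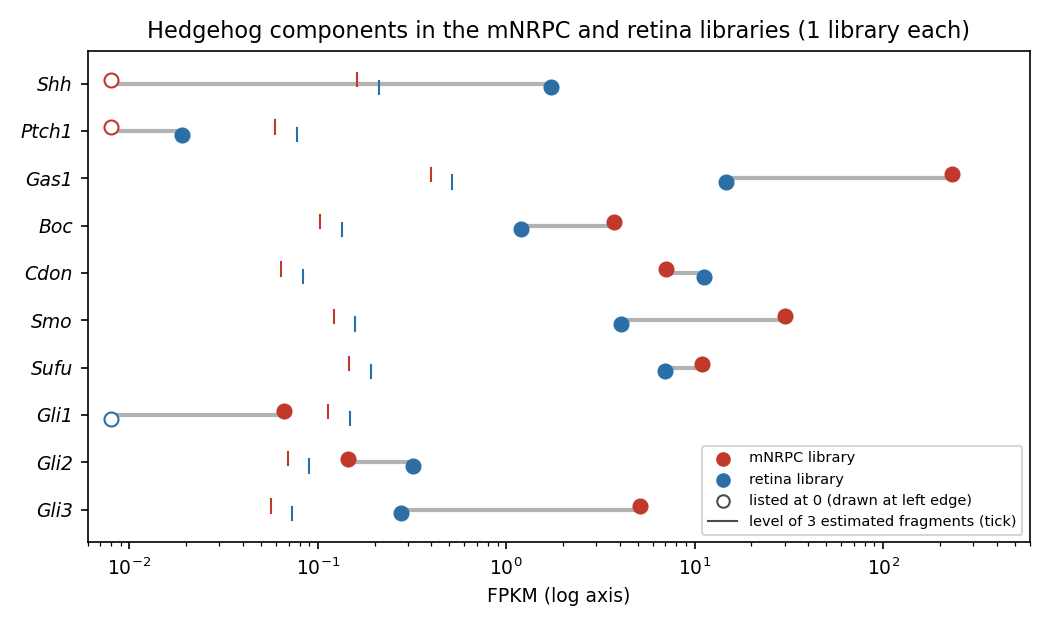
FPKM of the 10 components in the mNRPC library (red) and the retina library (blue) on a log axis, with open circles for genes listed at 0 and ticks at the level of 3 estimated fragments. Gas1, Smo, Boc and Gli3 lie further right in mNRPCs, and Ptch1 and Gli1 lie left of the ticks in both libraries.

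Shh was detectable in the retina library only. It was listed at 0 for mNRPCs, where 3 fragments would be 0.161 FPKM, and was at 1.73 FPKM in the retina library, an estimated 24.6 fragments (log2 ratio −1.45). All of the retina value lay on the curated transcript NM_009170.3, with the predicted rows XM_006535648.2 and XM_006535649.2 at 0. Dhh, the desert hedgehog ligand, was the more abundant ligand in retina with 6.00 FPKM, and had 0.125 FPKM in mNRPCs from an estimated 3.47 fragments. These Dhh levels sum 3 rows, of which 1 is curated. Ihh, the Indian hedgehog ligand, was under the limit in both libraries. Ganglion cell markers moved the same way, with 8 of 8 lower in mNRPCs. They ranged from 3.99 to 208 FPKM in retina and from 0 to 1.40 FPKM in mNRPCs, with Rbpms and Sncg listed at 0. This was not particular to ganglion cells, since 7 of 7 Müller glia markers, 4 of 5 astrocyte, 4 of 5 endothelial and 3 of 5 pigment epithelium markers were also lower. Their part in the Shh difference was not tested, and in tissue RNA fewer cells of a type and less RNA per cell cannot be told apart.

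The readout genes were close to 0 in both libraries. Ptch1 had no estimated signal in mNRPCs, where it was listed at 0, and 0.0191 FPKM in retina, an estimated 0.740 fragments. Gli1, the Gli factor that is itself induced by the pathway, showed 0.0663 FPKM in mNRPCs from an estimated 1.76 fragments, and was listed at 0 in retina. Both genes were thus not detectable in either library at this depth, and no fold was calculated. Of the other targets, Hhip, a surface protein that binds and sequesters ligand, was listed at 0 in mNRPCs and showed 0.0229 FPKM in retina. None of Ptch1, Gli1 and Hhip reached 1 FPKM in either library.

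These low values carry a limit of the table. Ptch1, Gli1, Gas1 and Boc rest on 1 curated row each. Only 55.8% of the predicted rows could be given a gene name, so a predicted transcript of one of these genes may be missing from its sum. For Ptch1 another curated transcript, 7002 bp long in GENCODE M21, had no row and is missing from the sum. Rows without a gene name took up 6.80% of summed FPKM in mNRPCs against 10.1% in retina. Among genes of at least 1 FPKM with both kinds of row, curated rows held under 1% of the level in 170 of 5735 genes in mNRPCs (2.96%) and in 272 of 6461 in retina (4.21%). A 0 can also be a failed estimate, as Rps19, a ribosomal protein gene of every cell that was picked after its values were seen, was at only 0.0586 FPKM in retina.

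Among the co-receptors Gas1 and Boc were higher in mNRPCs and Cdon was not, and Gas1 was the most abundant member in both libraries. Gas1, a membrane-anchored protein that binds Shh and was first known as a growth arrest gene, reached 233 FPKM in mNRPCs against 14.6 in retina, 16.0-fold higher in mNRPCs (log2 ratio 3.91, counting error 0.15). This level placed Gas1 at rank 345 of 31253 genes in the mNRPC library and at rank 5106 in the retina library. Boc, an immunoglobulin-type co-receptor, was at 3.75 and 1.19 FPKM, 3.14-fold higher (log2 ratio 1.11, counting error 0.19). Boc no longer reached the threshold once both libraries had the same sum (0.91) and without rod and cone genes (0.68). Cdon, the close relative of Boc, went the other way with 7.07 FPKM in mNRPCs against 11.2 in retina (log2 ratio −0.60, counting error 0.10), and passed the threshold as lower after rescaling (−1.11) and without rod and cone genes (−1.27). These scalings moved all genes, and relative to the median Cdon stood at −0.48 as deposited and at −0.43 and −0.45 under them.

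The make-up of the co-receptor group does not depend on the scaling between libraries. Gas1 held 95.6% of the summed co-receptor FPKM in mNRPCs and 54.0% in retina. Cdon held 2.90% and 41.5%, and Boc 1.54% and 4.42%. The level of Gas1 was 32.9 times that of Cdon in mNRPCs and 1.30 times in retina. These shares depend on the rows summed, since 9 of the 10 Cdon rows are predicted. With curated rows only, Gas1 was at 97.5 times the level of Cdon in mNRPCs and 4.05 times in retina, and held 97.4% and 75.3% of the group. Gas1 thus took the larger share in mNRPCs under either choice.

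**Figure D2:**
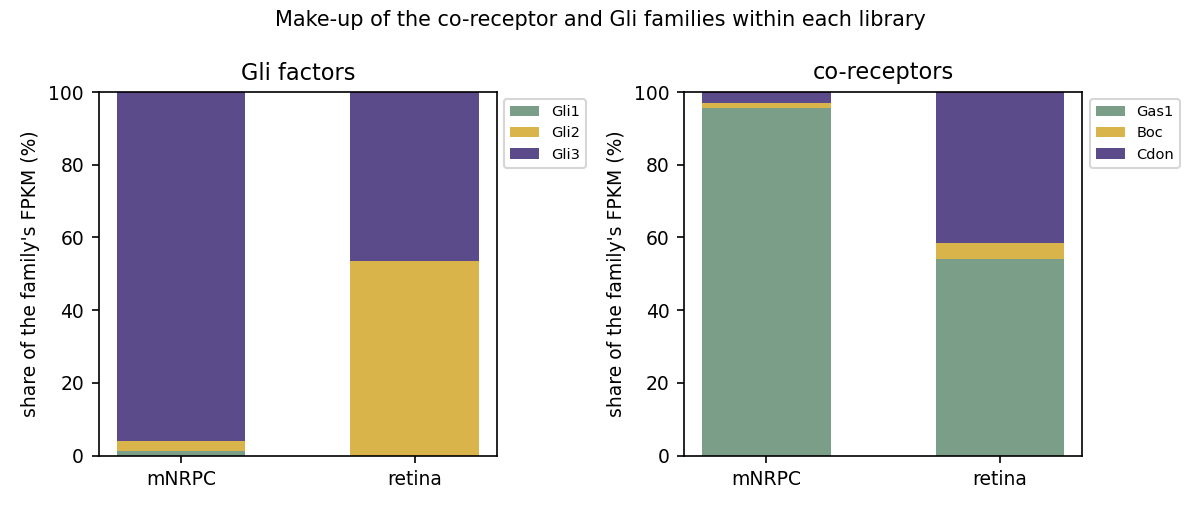
Share of FPKM (%), all rows summed, taken by each gene of the Gli factors (left) and the co-receptors (right) in each library. In mNRPCs Gli3 holds 96.1% and Gas1 95.6% of their families, against 46.5% and 54.0% in retina.

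Smo, the membrane protein that passes the signal into the cell, reached 30.3 FPKM in mNRPCs against 4.05 in retina, 7.49-fold higher in mNRPCs (log2 ratio 2.63, counting error 0.14). The percentile of Smo among the genes compared was 79.2 in mNRPCs and 29.4 in retina. The table splits Smo between the curated transcript NM_176996.4 and the predicted transcript XM_006505106.2. The curated row was at 7.46 and 1.81 FPKM, a log2 ratio of 1.59, and the predicted row at 22.9 and 2.24 FPKM, a log2 ratio of 2.88. Both rows were therefore higher in mNRPCs, and the predicted row held 75.4% of Smo there and 55.2% in retina.

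Sufu, the cytoplasmic protein that binds and restrains Gli factors, reached 10.9 FPKM in mNRPCs against 6.93 in retina (log2 ratio 0.59, counting error 0.16). The rows behind this sum lay on opposite sides of 0. The transcript NM_001025391.2 reached 7.12 FPKM in mNRPCs against 1.78 in retina (log2 ratio 1.55), while the shorter transcript NM_015752.3 was at 3.80 and 5.16 FPKM (−0.36). The longer transcript held 65.2% of Sufu in mNRPCs and 25.6% in retina. The lengths of the corresponding GENCODE transcripts were 4522 and 1747 bp. Reads that fit both are divided between them by estimation, so the split is less certain than the sum, and with only the row of the highest mean level the log2 ratio of Sufu was −0.36. Without rod and cone genes it was −0.06, but relative to the median of all genes compared it was 0.71 as deposited and 0.76 under that scaling. Smo was at 2.78 times the level of Sufu in mNRPCs and at 0.584 times in retina with all rows summed, but at 0.684 and 0.261 times with curated rows only, so that the order of both genes in mNRPCs turned with the choice of rows.

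**Figure D3:**
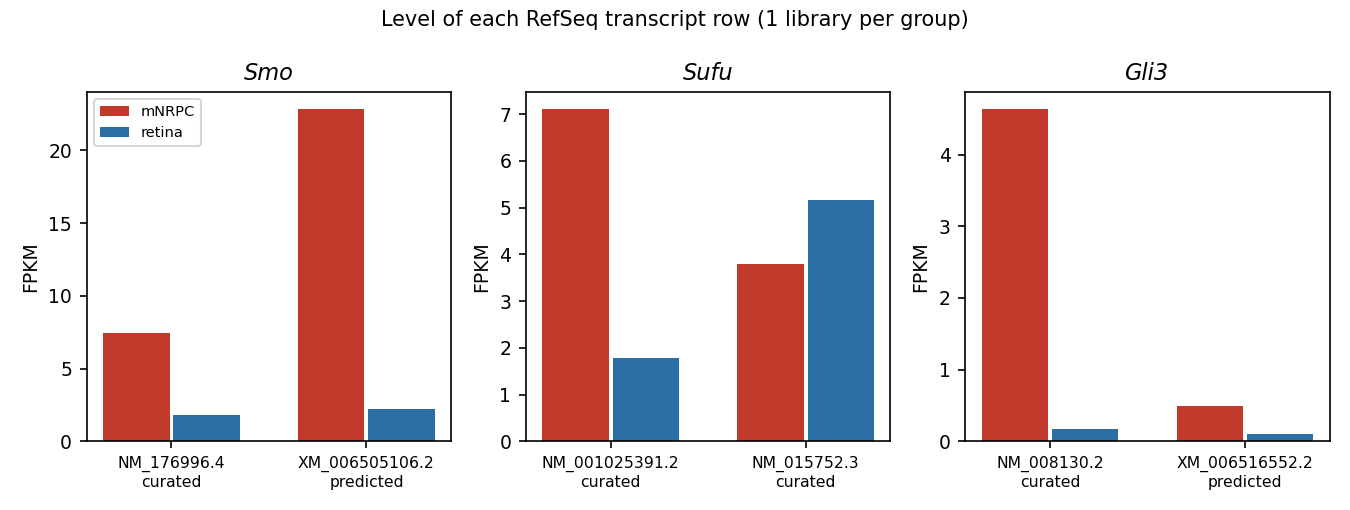
FPKM of each RefSeq transcript row of Smo, Sufu and Gli3 in the mNRPC (red) and retina (blue) libraries. Both Smo rows and both Gli3 rows are higher in mNRPCs, and the Sufu rows differ in direction.

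Of the Gli factors Gli3 alone exceeded 1 FPKM. Gli3, which in the absence of signal is processed into the main repressor of the pathway, reached 5.13 FPKM in mNRPCs against 0.277 in retina, an estimated 274 and 11.3 fragments, and was 18.5-fold higher in mNRPCs without the added 1. The log2 ratio was 2.26, and 3.80 with 0.1 added in place of 1. The curated transcript NM_008130.2 held 90.4% of Gli3 in mNRPCs and 60.3% in retina. Gli2, the main activator of the family, had 0.144 FPKM in mNRPCs against 0.318 in retina, an estimated 6.25 and 10.6 fragments. In retina Gli2 and Gli3 thus stood on nearly equal numbers of fragments and cannot be ordered, whereas in mNRPCs the level of Gli3 was 35.6 times that of Gli2. With curated rows only, the level of Gli3 was 110 times that of Gli2 in mNRPCs and 1.68 times in retina. The curated Gli2 row had only an estimated 1.83 fragments in mNRPCs, under the limit, so the size of this ratio is uncertain. Gli3 held 96.1% of the summed Gli FPKM in mNRPCs and 46.5% in retina, and Gli2 held 2.70% and 53.5%. With curated rows only, Gli3 held 97.7% and 62.7%.

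By level per length with all rows summed, the order in mNRPCs was Gas1, Smo, Sufu, Cdon, Gli3, Boc and Gli2, followed by Gli1, Shh and Ptch1 at or under the limit. In retina it was Gas1, Cdon, Sufu, Smo, Shh and Boc, followed by Gli2 and Gli3 and, at or under the limit, Ptch1 and Gli1. With curated rows only, the order above the Gli2 level became Gas1, Sufu, Smo, Gli3, Boc and Cdon in mNRPCs, and in retina Sufu passed Cdon. Markers of fibroblasts and mural cells, cells in which Hedgehog components are also expressed, were looked at beside these values. Of 8 such markers 3 were higher in mNRPCs, Col3a1 at 450 FPKM, Acta2 at 10.1 and Pdgfrb at 4.49, none was lower, and Lum was listed at 0 in both libraries. Col1a2 had 0.0843 FPKM in mNRPCs against 0.952 in retina, and Dcn at 1.96 and 2.58. The summed level of the 8 was 470 FPKM in mNRPCs and 11.3 in retina, and without Col3a1 it was 19.8 and 10.9. Astrocyte markers (5) and endothelial markers (5) were at 0 to 0.112 FPKM in mNRPCs, with Gfap and Cdh5 listed at 0. The part of other cell types in the member differences was not tested.

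**Figure D4:**
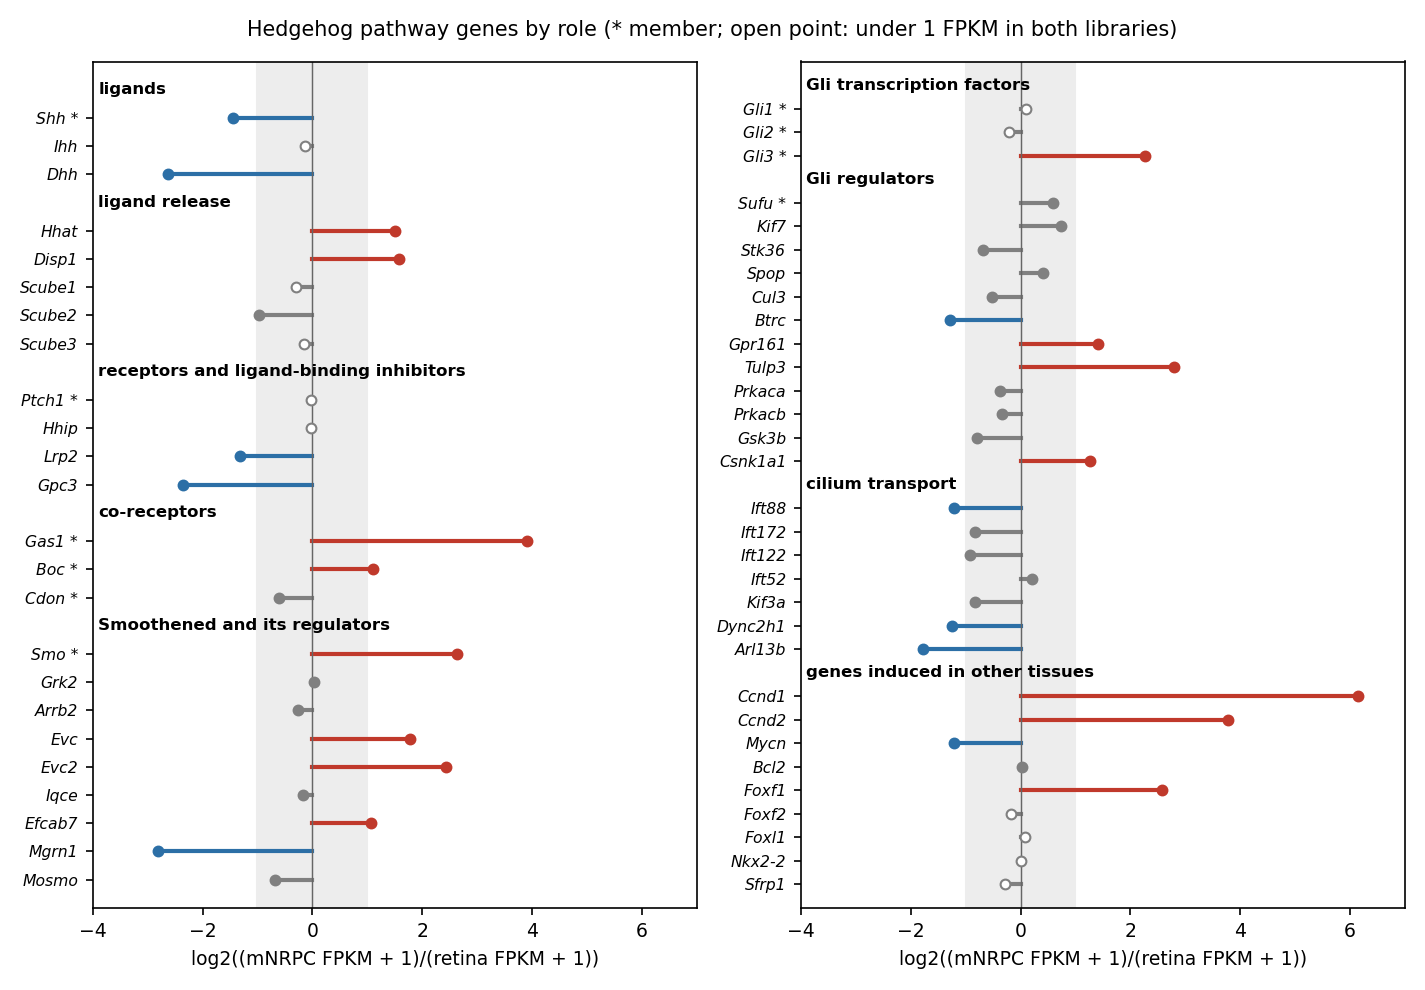
Log2 ratio of pathway genes by role, with members marked by an asterisk, the band of log2 ratios under 1 in size in grey, and open points for genes under 1 FPKM in both libraries. Gas1, Smo and Gli3 are the members farthest to the right, and the targets Gli1, Ptch1 and Hhip sit near 0 as open points.

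The components were then set beside a wider list of 57 pathway genes, which includes them. Of the 45 that were compared, 15 were higher in mNRPCs, 10 lower and 20 under the threshold, beside 24.5% higher and 30.0% lower over all genes. The balance turned with the scaling, to 12 higher and 19 lower with both libraries at a common sum and to 12 and 21 without rod and cone genes. The all-gene shares moved alike, to 18.4% higher and 42.4% lower at a common sum and to 15.9% and 45.1% without rod and cone genes. With curated rows only, 13 pathway genes were higher and 6 lower, beside 26.4% and 27.9% over all genes. Shh, Lrp2, Gpc3 and Mycn each have signal on 1 curated row and keep their call. The lost calls are thus among Dhh, Mgrn1, Btrc, Arl13b, Dync2h1 and Ift88, which sum several rows. The added 1 keeps genes of low level under the threshold, as for Scube2 with 0.0336 FPKM in mNRPCs against 1.02 in retina (−0.96). As deposited the 45 had a median log2 ratio of −0.18, against −0.12 for all genes compared. Without the members there were 11 higher and 9 lower among 38 compared.

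Smo and its regulators are 10 genes, with 4 higher in mNRPCs, 1 lower and 5 under the threshold, beside 24.5% higher and 30.0% lower over all genes. Evc2 and Evc, which form a complex at the base of the cilium downstream of Smo, reached 15.1 and 10.7 FPKM in mNRPCs, against 1.96 and 2.42 in retina (log2 ratios 2.44 and 1.77). Efcab7, a partner of this complex, was also higher (1.07) but passed 1 FPKM in mNRPCs alone and lies under the threshold at a common sum. Iqce, another partner, was not higher (−0.18). Mgrn1, a ubiquitin ligase that lowers Smo at the cell surface, reached 2.69 FPKM in mNRPCs against 24.9 in retina (−2.81). Hhat, which attaches palmitate to the ligands, was at 3.69 and 0.661 FPKM (1.50), past 1 FPKM in mNRPCs alone, so that the filter favoured its call. Disp1, which releases the lipid-bearing ligand, was at 6.44 and 1.50 FPKM (1.57). Of the other genes of ligand release, which carry ligand away from the cell surface, Scube2 was under the threshold (−0.96), and Scube1 and Scube3 were under 1 FPKM in both libraries with the larger value in retina.

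Among 12 regulators of Gli proteins, Sufu included, 3 were higher, 8 lay under the threshold and 1 was lower as deposited. The share of higher genes was near the 24.5% over all genes, and that of lower genes was under the 30.0% over all genes, a difference that was not tested. Tulp3, which carries receptors into the cilium, reached 51.9 FPKM in mNRPCs against 6.64 in retina (log2 ratio 2.79), and its cargo Gpr161, a receptor that holds the pathway back through protein kinase A, was at 3.66 and 0.744 (1.42), past 1 FPKM in mNRPCs alone. Csnk1a1, a casein kinase that phosphorylates Gli proteins, was at 95.0 and 38.7 FPKM (1.27), and lies under the threshold at a common sum. Btrc, the ubiquitin ligase subunit that directs processing of phosphorylated Gli3, was the lower gene at 4.48 and 12.3 FPKM (−1.28). Gsk3b, the target of CHIR99021 and also a kinase of Gli proteins, was at 9.71 and 17.6 FPKM (−0.79). The kinase A subunits Prkaca and Prkacb were under the threshold (−0.37 and −0.34).

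Of the 5 receptors and ligand-binding inhibitors 2 were compared, Gpc3 and Lrp2, and both entered through their level in retina alone, so that their call as lower was nearly fixed by the filter. Gpc3, a proteoglycan that competes for ligand, had 4.75 FPKM in retina and 0.125 in mNRPCs, an estimated 1.81 fragments. Lrp2, an endocytic receptor, was at 1.69 FPKM in retina and 0.0754 in mNRPCs. Of 7 genes of transport in the cilium, the structure in which the pathway works in vertebrate cells, none was higher and 4 lay under the threshold. The 3 lower in mNRPCs were Arl13b (−1.78), Dync2h1 (−1.26) and Ift88 (−1.21), beside 30.0% lower over all genes. These counts are as deposited and depend on the scaling and on the rows summed. Arl13b, Dync2h1 and Ift88 sum 4, 3 and 6 rows, of which 1 each is curated. Ift122 (−0.92), Ift172 (−0.84) and Kif3a (−0.82) also pass the threshold as lower at a common sum, where 42.4% of all genes were lower. Rod outer segments are themselves modified cilia, and the 8 rod markers were lower as well. Their part in these differences was not tested.

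**Figure D5:**
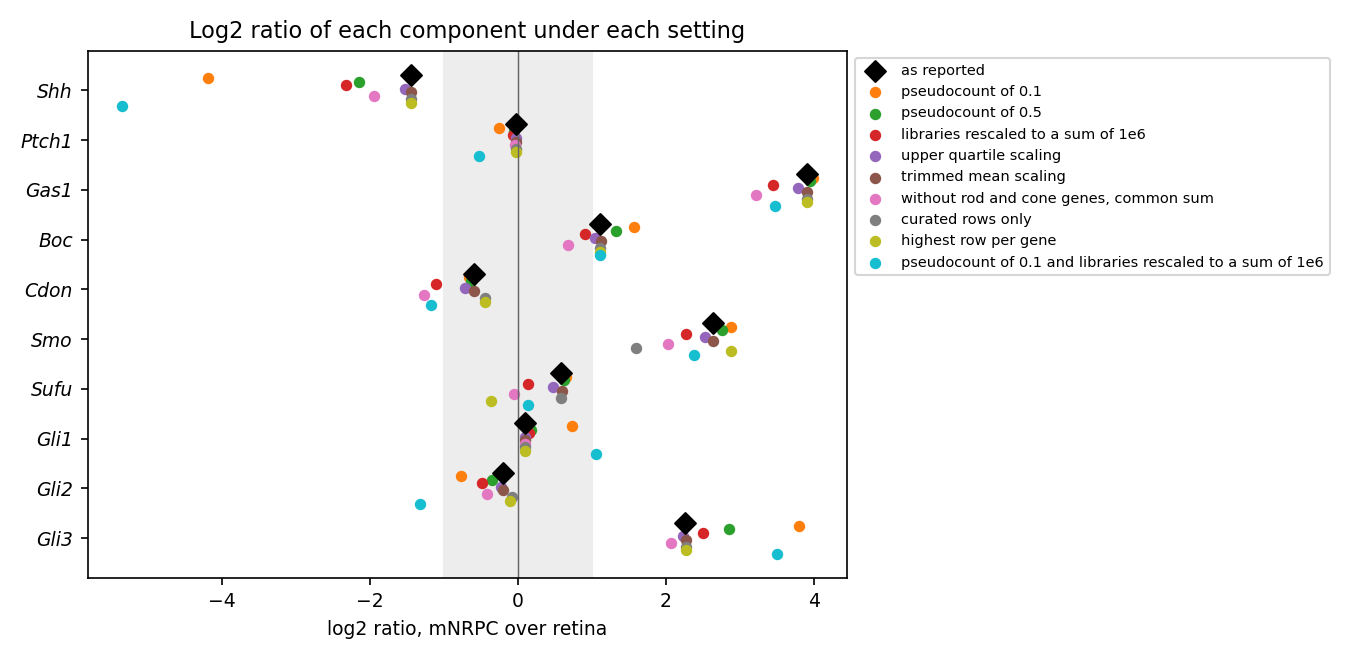
Log2 ratio of each component as reported (black diamond) and under 9 other settings (coloured points), with the grey band marking log2 ratios under 1 in size. Gas1, Smo and Gli3 stay above 1 and Shh below −1 under each setting shown, while Boc, Cdon, Sufu, Gli1 and Gli2 cross a threshold or 0 under at least 1 of these.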

How the data were processed

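Values were available for 2 libraries, 1 of mNRPCs and 1 of retina, grouped by the labels. The authors deposited FPKM values, 1 per RefSeq transcript and library. The methods name Bowtie 2 for alignment and eXpress for FPKM, while the submitters' processing notes name TopHat2 2.0.10 and the build GRCm38.p3. The annotation release is not given in the sources used here.

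The 106754 rows were matched without accession version to RefSeq symbols of GRCm38.p6, then to GENCODE M21, and 74283 (69.6%) matched. Rows were summed per gene, and values below 1e-06 were read as 0. Following the study, 1 was added before log2. Genes with at least 1 FPKM in a library were compared, and a log2 ratio of 1 in size was the threshold. No test was possible with 1 library per group. Depth was estimated from the peak of low FPKM times transcript length, in genes with 1 row and at least 1500 bp (621 rows in mNRPCs, 632 in retina). Fragment numbers and counting errors are therefore estimates and cover counting error only. All members were named, and genes of the wider list were named by role. The members and lists were chosen with earlier results of these data known. Pseudocount, scaling, row choice, filter and threshold were varied. The calculations used Python 3.11.15 with pandas 2.3.3 and numpy 2.4.6. The depth estimate was tested on simulated fragments. The calls were tested on retina values multiplied by known folds, without counting noise and without genes of low level, so that test does not cover such genes. Protein sequences were not used here. Some genes of the lists are counted but not reported here by name.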

Additional observations from a re-analysis of the deposited data

How the results depend on the processing

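The direction of Gas1, Smo and Gli3 and their side of the threshold held under each alternative for pseudocount, scaling and rows. Shh also stayed on its side of the threshold, but at 0 in mNRPCs its direction could not change. Row choice could not move Gas1 or Shh, whose signal lies on 1 row each. Over these alternatives the log2 ratio of Gas1 ranged from 3.22 to 3.99 and of Smo from 1.59 (curated rows) to 2.88. That of Gli3 ranged from 2.07 to 3.80 and that of Shh from −5.36 to −1.44. Of 90 member values under alternatives 59 lay within the 95% counting interval of the reported one, and 31 moved beyond it. Part of the 59 was fixed in advance. The row settings could not move Shh, Ptch1, Gas1, Boc and Gli1, whose signal lies on 1 curated row each. The number of lower components was 2 after rescaling to a common sum and 2 without rod and cone genes, where Cdon was added with the shift of all genes, and 0 with a threshold of 2 or a minimum of 5 FPKM. Lower pathway genes numbered 19 and 21 under the same rescalings, 6 with curated rows, 3 with a threshold of 2, where 8 were higher, and 6 at 5 FPKM. Over all genes 6349 and 6465 were lower under the rescalings, and a threshold of 2 left 1547 higher and 1942 lower, fewer by construction. For the other changes the cause was not tested. The combination of a pseudocount of 0.1 with rescaling was added after the data had been seen, and gave 1.05 for Gli1 and −1.33 for Gli2, both on few fragments. Depth limits Ptch1, Gli1, Gli2 and, in mNRPCs, Shh. No paired analysis was possible because both groups hold a single library.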

Other observations

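Beside the readout genes Gli1 and Ptch1, 9 genes that Hedgehog signalling can induce in other tissues were examined. These genes are controlled by many pathways. Ccnd1 and Ccnd2, which encode D-type cyclins, reached 371 and 24.1 FPKM in mNRPCs, against 4.26 and 0.822 in retina (log2 ratios 6.14 and 3.79). Foxf1, a forkhead factor of mesenchyme, had 4.97 FPKM in mNRPCs from an estimated 78.4 fragments, and was listed at 0 in retina. Its relatives Foxf2 and Foxl1 were under 1 FPKM in both libraries. Mycn, a growth regulator of progenitors, reached 1.25 FPKM in mNRPCs against 4.22 in retina (−1.21), and Bcl2, a survival gene, was at 4.76 and 4.63 (0.03). Nkx2-2 was listed at 0 in both libraries. Of the 9 genes 3 were higher, 1 was lower and 1 was within 2-fold, and 4 were not compared, beside 24.5% higher and 30.0% lower over all genes. Foxf1 and Ccnd2 passed 1 FPKM in mNRPCs alone, so that the filter favoured a call for them.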
